A study of Mus musculus with 6 samples.

Results

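The pentose phosphate pathway was followed through the transcripts of 10 enzyme genes: G6pdx, H6pd, Pgls and Pgd of the oxidative branch, Rpia, Rpe, Tkt and Taldo1 of the non-oxidative branch, and the ribose-phosphate pyrophosphokinase genes Prps1 and Prps2. They were picked by symbol for their place in the pathway, with earlier results of these data known. Each matched 1 of the 32285 genes. The 6 libraries came from neocortex of wild-type (WT) mouse embryos at stage E10.5. Dissociated cells were cultured, and about 2 h later received GSK2837808A, an inhibitor of lactate dehydrogenase, or an equal volume of its solvent DMSO. After about 24 h, about 1000 DAPI-negative (living) cells with CD133 on their surface, which Prom1 encodes, were taken by sorting for each sample as radial glial progenitors (RGP) and sequenced in bulk with a modified Smart-seq2 protocol. There were 3 DMSO and 3 GSK libraries. The labels give the inhibitor at 100 mM, which would be very high for a culture medium, so the dose is uncertain. No label says that replicates were separate cultures or litters, so the p-values rest on a spread that may be only technical.

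The pathway branches from glycolysis at glucose 6-phosphate. Its oxidative branch runs through glucose-6-phosphate dehydrogenase, 6-phosphogluconolactonase and 6-phosphogluconate dehydrogenase, which yield NADPH and a pentose phosphate. The non-oxidative branch interconverts pentose phosphates with sugars of glycolysis, reversibly, so that ribose can be made or returned according to need. Ribose-phosphate pyrophosphokinases then turn ribose 5-phosphate into PRPP, the precursor of nucleotides that dividing progenitors require for their DNA and RNA.

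In neither the oxidative nor the non-oxidative branch were all 4 genes called in 1 direction, and genes not called may still have moved. G6pdx, the entry enzyme of the oxidative branch, rose in GSK libraries to 133% of its DMSO mean, while Pgls, the next enzyme of the same branch, fell to 72.4%. The calls of G6pdx and Pgls were each lost when some single libraries were left out. In the non-oxidative branch Tkt, which encodes transketolase, was the one gene of 4 that was called, falling to 68.5%. Both PRPP synthetase genes fell, Prps1 to 65.1% and Prps2 to 41.8%. Of the 10 genes, 1 was called higher and 4 lower, where a call means an adjusted p below 0.05 in limma fitted on log2 of normalised reads plus 1, with Benjamini-Hochberg adjustment over all 15073 genes tested. Over all tested genes 36.1% were called, 17.0% higher and 19.1% lower. The median log2 fold change was -0.37 over the 10 genes, against 0.01 over all genes tested. All 10 passed the filter of a mean of at least 10 normalised reads. The GSK values lay wholly above the DMSO values for 2 of the 10 genes and wholly below for 4, while among all genes tested 22.8% lay above and 24.4% below, 47.2% in all.

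**Figure D1:**
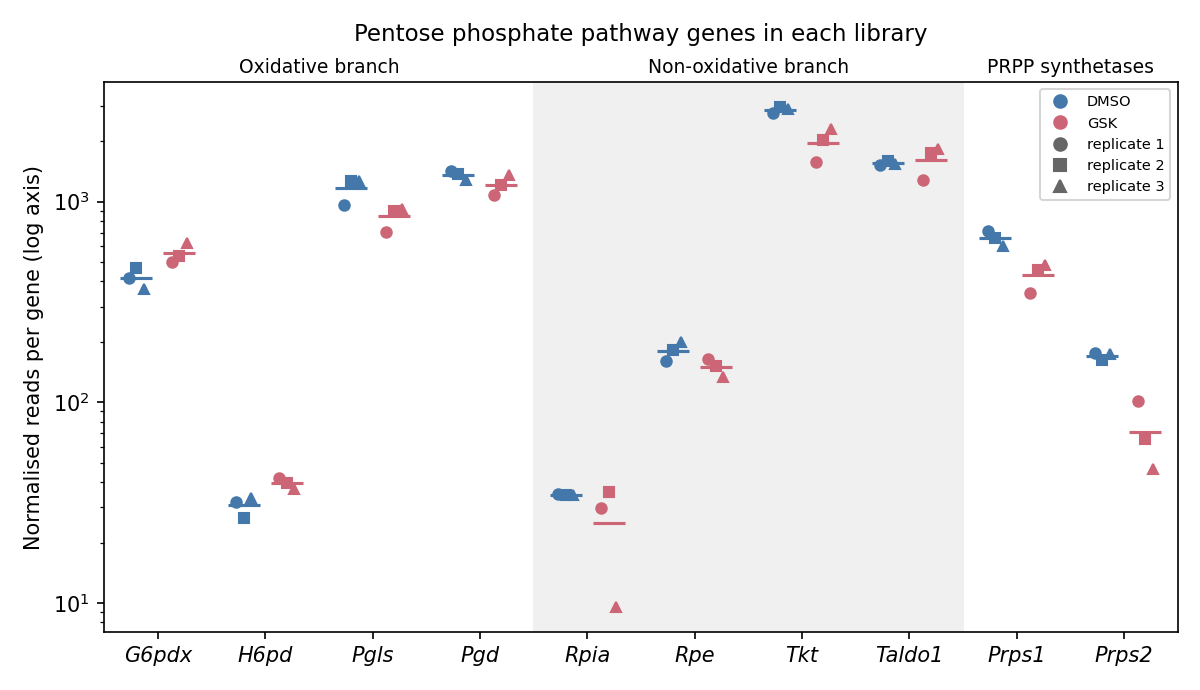
Normalised reads per gene on a log axis for the 10 pathway genes in each of the 6 libraries, with DMSO in blue, GSK in red, a symbol shape per replicate number and a bar at each group mean. The GSK points lie wholly above the DMSO points for G6pdx and H6pd, wholly below them for Pgls, Tkt, Prps1 and Prps2, and overlap for the other genes.

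Sequence from the start regions of G6pdx, Prps1 and Prps2, genes with called changes, is shown first, from RefSeq promoter windows on GRCm38.p6 (GENCODE M21 was used for all other positions). Such windows were found for all 10 genes, 11 in all because Pgd has 2, and the 250 bases before each start were searched on both strands for CACGTG (the E-box bound by MYC and other factors), TGACNNNGC (the core of the antioxidant response element), TGACGTCA (the cyclic AMP response element) and, added after the data were seen, CCAAT (bound by NF-Y). The G6pdx window was the only one of the 11 with the antioxidant core, and that match overlapped none of the other motifs. The 30 bases around it lie at chrX:74428918-74428947, minus strand, with the match in capitals, which reads TGACTGAGC on the other strand and ends 48 bases before the RefSeq start, inside the first exon of the longer GENCODE transcript.
G6pdx: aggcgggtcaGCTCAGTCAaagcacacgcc
That core was present in 10.2% of all 32851 windows of this length, so a single match among 11 windows is near the background. The windows of Prps1 (chrX:140456353-140456602, plus strand) and Prps2 (chrX:167382750-167382999, minus strand) are shown because both genes fell. CCAAT is in capitals.
Prps1: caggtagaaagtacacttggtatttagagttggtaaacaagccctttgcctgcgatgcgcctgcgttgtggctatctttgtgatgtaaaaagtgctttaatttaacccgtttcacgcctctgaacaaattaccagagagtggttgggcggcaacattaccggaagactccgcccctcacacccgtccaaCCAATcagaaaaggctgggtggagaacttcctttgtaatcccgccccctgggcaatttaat
Prps2: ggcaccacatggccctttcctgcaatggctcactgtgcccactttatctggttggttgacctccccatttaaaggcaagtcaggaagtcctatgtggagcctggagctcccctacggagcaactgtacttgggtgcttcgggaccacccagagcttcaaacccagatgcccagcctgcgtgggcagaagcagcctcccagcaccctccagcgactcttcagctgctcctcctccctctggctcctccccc
Prps1 held 1 CCAAT and Prps2 none, and the motif occurred in 33.8% of all windows. The start regions also differed in composition, with 10 CG dinucleotides and 48.4% G and C in Prps1 against 4 and 60.0% in Prps2. No E-box or cyclic AMP response element was found in any of the 11 windows, which says only that these letters are not there. They occurred in 6.02% and 1.55% of all windows. Not every window lies before the gene as GENCODE annotates it. Those of G6pdx, H6pd (chr4:150003237-150003486) and Tkt (chr14:30548881-30549130) lie wholly inside the gene, past its outermost start. So does the Pgd window at chr4:149166083-149166332.

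The libraries held between 7187089 and 10224348 reads. The genes were read at very different depths, from 9 to 40 reads per library for Rpia and 30 to 43 for H6pd up to 1392 to 3442 for Tkt. Markers chosen for the labelled cell type were present, but 8 of 10 radial glial genes and all 8 cell cycle genes were called lower in GSK libraries. The summed cell cycle genes ran from 18656 to 20071 normalised reads in DMSO and from 6754 to 7538 in GSK libraries. Red blood cell genes were called higher in 8 of 9 tested cases, and in all 9 the GSK values lay above the DMSO values. Their sums were 2461 to 21016 in DMSO and 186922 to 277396 in GSK libraries. Of the 11 microglia and macrophage genes 7 were called higher (sums of 98.8 to 412 and 633 to 1356), and Trem2 was at 0 in DMSO replicates 1 and 2, with C1qb at 0 in DMSO replicate 2. Neuron markers were called higher in 3 of 6 cases (6672 to 13450 and 19854 to 24317), and 4 of 5 intermediate progenitor genes were called higher (927 to 1293 and 1816 to 2560). Mesenchymal genes were present in every library (27184 to 34264 and 16991 to 26550, 2 of 6 called lower). The endothelial sums overlapped (46.7 to 63.6 and 46.7 to 68.3) and Cldn5 was at or near 0 throughout. In bulk samples fewer cells of a type and less RNA per cell cannot be told apart, and the part of these cell types in the results below was not tested.

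G6pdx (ENSMUSG00000031400, chromosome X, 74409483 to 74429194, GRCm38) encodes cytosolic glucose-6-phosphate dehydrogenase, the committed and regulated step that makes the first NADPH. It had 415, 467 and 366 normalised reads in DMSO replicates 1, 2 and 3 and 498, 536 and 623 in GSK replicates 1, 2 and 3. All GSK values lay above all DMSO values. The log2 fold change was 0.41 (standard error 0.14, limma adjusted p = 0.0266), or 416 ± 50.2 against 552 ± 63.9 (mean ± SD, n = 3 per group). The call was lost without DMSO replicate 1, DMSO replicate 3, GSK replicate 2 or GSK replicate 3 (limma adjusted p between 0.0699 and 0.130) and with equal library totals (log2 fold change 0.34, limma adjusted p = 0.0538). The 6 libraries ranked in the same order by G6pdx as by the summed neuron markers. These sums were 11125, 13450 and 6672 in DMSO and 19854, 22594 and 24317 in GSK libraries. That order was not particular to neurons. The summed other NADPH sources described below shared it, at 8169, 8510 and 7818 in DMSO and 8664, 9640 and 10664 in GSK libraries. The part of neurons in the G6pdx values was not tested. G6pdx shares 418 exon bases with Ikbkg on the opposite strand, and Smart-seq2 does not mark strand. Ikbkg rose too, with a log2 fold change of 0.54 (limma adjusted p = 0.00787).

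H6pd encodes the related dehydrogenase of the endoplasmic reticulum, which supplies NADPH inside that compartment. Its values were 31.9, 26.6 and 33.5 in DMSO and 42.1, 39.5 and 37.1 in GSK libraries, again with no overlap. The log2 fold change of 0.36 did not pass the test (limma adjusted p = 0.296), and its 95% confidence interval ran from -0.18 to 0.91. A rise like that of G6pdx and no change are both inside that interval.

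Pgls (ENSMUSG00000031807, chromosome 8, 71592176 to 71601092) encodes 6-phosphogluconolactonase, which opens the lactone made by the dehydrogenase. It had 963, 1269 and 1264 normalised reads in DMSO and 704, 903 and 923 in GSK libraries. Every GSK value was below every DMSO value, although GSK replicate 3 came close to DMSO replicate 1. The log2 fold change was -0.46 (standard error 0.14, limma adjusted p = 0.0157), and the call was lost without DMSO replicate 2 (0.0914) or DMSO replicate 3 (0.0781). Pgls shares 776 exon bases on the same strand with the gene annotated as Fam129c and named Niban3 in the table, all in another transcript than its principal one, and no 50-base stretch of the principal transcript occurs in that gene. Niban3 itself was low, at 15.8 to 16.3 normalised reads in DMSO and 17.5 to 25.0 in GSK libraries.

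Pgd encodes 6-phosphogluconate dehydrogenase, which makes the second NADPH and ribulose 5-phosphate. It was at 1422, 1366 and 1279.7 in DMSO and 1079, 1207 and 1353 in GSK libraries, so the groups overlapped through GSK replicate 3. Its log2 fold change of -0.17 did not pass (limma adjusted p = 0.336; 95% confidence interval -0.43 to 0.10), and it ran from -0.084 without GSK replicate 1 to -0.25 without GSK replicate 3. The oxidative branch thus had 1 gene higher, 1 lower and 2 not called, with a median log2 fold change of 0.10. The sum of its 4 genes was 2968 ± 149 in DMSO and 2648 ± 308 in GSK libraries, given without a test because the genes were chosen as a set.

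**Figure D2:**
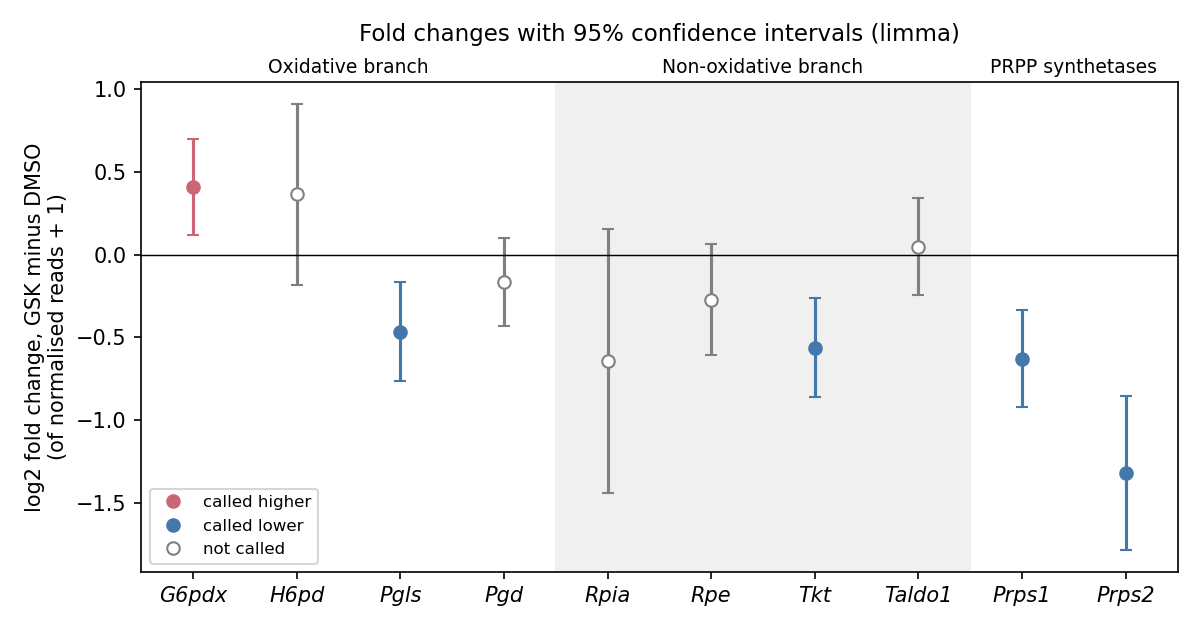
log2 fold change of GSK against DMSO for each of the 10 genes, ordered by branch, with 95% confidence intervals from limma. Filled points are called, red for higher and blue for lower, and open grey points are not called; G6pdx is the single called rise and Prps2 has the lowest value, -1.32.

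Tkt (ENSMUSG00000021957, chromosome 14, 30548359 to 30574720) encodes transketolase, the thiamine-dependent enzyme that moves carbon pairs between sugar phosphates and links the pathway back to glycolysis. It had 2754, 2957 and 2904 normalised reads in DMSO libraries. The GSK libraries had 1584, 2028 and 2292, all below the lowest DMSO value. The DMSO libraries were tight and the GSK libraries were not, with coefficients of variation of 3.66% and 18.2%. The log2 fold change was -0.56 (standard error 0.14, limma adjusted p = 0.00463), and the call held when each library was left out in turn (adjusted p up to 0.0284).

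Taldo1 encodes transaldolase, which works beside transketolase in the same exchange. It had 1519, 1591 and 1538 normalised reads in DMSO and 1288, 1746 and 1827 in GSK libraries. GSK replicate 1 was below and the other two GSK libraries above all DMSO values, so the direction differed within the group. This gave a log2 fold change of 0.05 (limma adjusted p = 0.821; 95% confidence interval -0.25 to 0.34), with its sign reversed to -0.02 under equal library totals.

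Rpia and Rpe encode the isomerase and the epimerase that feed ribose 5-phosphate and xylulose 5-phosphate into the exchange. Rpia was at 35.1, 34.4 and 34.4 in DMSO and at 29.6, 35.8 and 9.55 in GSK libraries. Its low mean in GSK libraries rested on replicate 3, which held 9 reads. For Rpia the log2 fold change was -0.64 (limma adjusted p = 0.201) and -0.08 without that library. Rpe was at 161, 182 and 199.8 in DMSO and at 164, 152 and 134 in GSK libraries, with overlap between GSK replicate 1 and DMSO replicate 1. Its log2 fold change of -0.27 did not pass (limma adjusted p = 0.199; 95% confidence interval -0.61 to 0.06). Rpe shares 558 exon bases with Kansl1l on the opposite strand, which was called higher (log2 fold change 0.74, limma adjusted p = 0.00874). The non-oxidative branch thus had 1 gene lower and 3 not called, with a median log2 fold change of -0.42. Its sum was 4637 ± 151 in DMSO and 3763 ± 623 in GSK libraries.

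Prps1 and Prps2 both lie on the X chromosome, at 140456613 to 140476140 and 167346322 to 167382749 (ENSMUSG00000031432 and ENSMUSG00000025742), and encode isoforms of the enzyme that makes PRPP. Prps1 had 712, 662 and 602 normalised reads in DMSO and 352, 454 and 481 in GSK libraries. The groups did not overlap, and the log2 fold change was -0.63 (standard error 0.14, limma adjusted p = 0.00162). Prps2 had 175, 162 and 174 in DMSO and 101, 65.2 and 46.7 in GSK libraries. Its log2 fold change was -1.32 (standard error 0.22, limma adjusted p = 0.000108), and the GSK libraries again lay wholly below. The GSK libraries ranked in opposite order for the isoforms: replicate 1 was lowest for Prps1 and highest for Prps2. Both calls held when each library was left out (adjusted p up to 0.0157 for Prps1 and 0.00155 for Prps2). The summed PRPP synthetase reads were 829 ± 55.7 in DMSO and 499.8 ± 40.8 in GSK libraries.

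Some of these genes have near copies. Of the 50-base stretches of the principal Prps1 transcript, 10.1% also occur in the related Prps1l3, and 7.65% of those of G6pdx occur in G6pd2. For Taldo1, 12.4% occur in Gm17823, which is not analysed here, and Prps2 shared 0.0274% with Slc15a3. None of the other 6 genes shared such a stretch with a transcript of another gene in the annotation, read in the same sense. Prps1l3 had 329, 334 and 317 normalised reads in DMSO and 211, 161 and 166 in GSK libraries, falling beside Prps1 with a log2 fold change of -0.88 (limma adjusted p = 0.000125). How reads that match both were assigned is not given in the sources used here, so the split between Prps1 and Prps1l3 is uncertain. G6pd2 stayed at 3.44 to 5.31 normalised reads in DMSO and 0.919 to 2.28 in GSK libraries.

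Ratios of 2 genes within a library do not depend on how libraries were scaled, apart from the 1 added to each value. For G6pdx over Tkt the log2 ratio was -2.73, -2.66 and -2.98 in DMSO and -1.67, -1.92 and -1.88 in GSK libraries. The groups did not overlap, and the difference of means was 0.97. This separation had to follow, since in GSK libraries G6pdx lay wholly above and Tkt wholly below. The p-value of this ratio therefore adds no support. The log2 ratio of Tkt to Taldo1 was 0.86, 0.89 and 0.92 in DMSO and 0.30, 0.22 and 0.33 in GSK libraries, a difference of -0.61, again without overlap. Both gave p = 0.1 in a two-sided exact permutation test, the smallest p that 3 against 3 allows, and p = 0.2 after Benjamini-Hochberg adjustment over the 4 ratios tested. The Tkt to Taldo1 ratio was thus close in the GSK libraries, although Tkt and Taldo1 each varied among them. For Prps1 over Prps2 the log2 ratio was 2.02, 2.03 and 1.79 in DMSO and 1.79, 2.78 and 3.34 in GSK libraries. GSK replicate 1 was at the level of the lowest DMSO library, and the difference of 0.69 gave p = 0.4 (exact permutation test; 0.533 adjusted). Without GSK replicate 1 that difference was 1.11, and without GSK replicate 3 it was 0.34. Rpia over Rpe was -2.17, -2.37 and -2.50 in DMSO and -2.43, -2.05 and -3.67 in GSK libraries. These overlapped (exact permutation p = 0.8, adjusted 0.8).

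**Figure D3:**
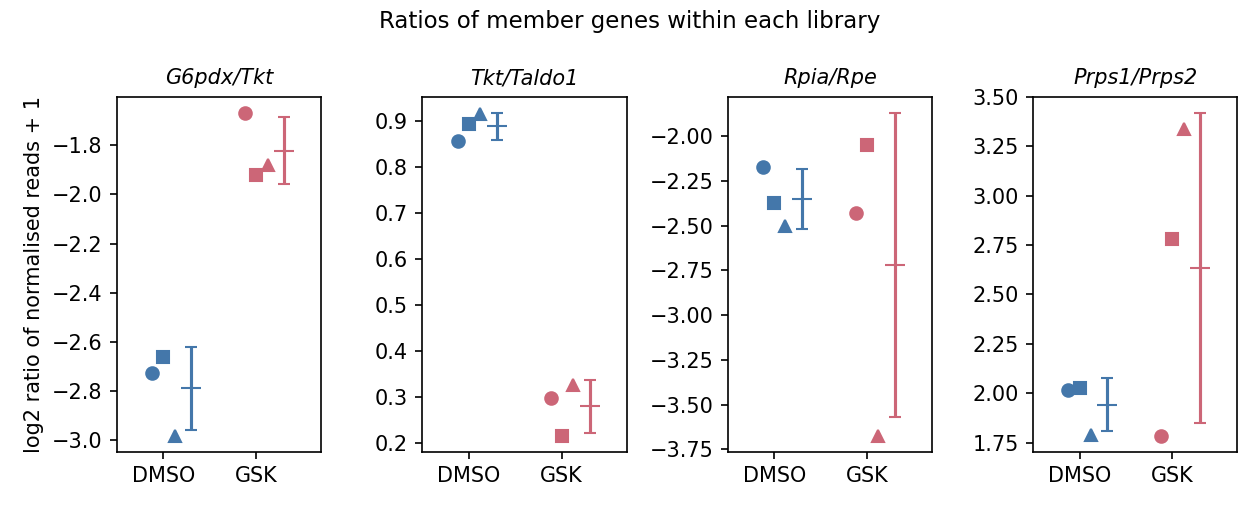
log2 ratio of normalised reads plus 1 for 4 gene pairs, each axis on its own range, with a point per library (shape by replicate number) and the mean ± SD beside it. The G6pdx to Tkt and Tkt to Taldo1 ratios separate DMSO from GSK libraries, and the Rpia to Rpe and Prps1 to Prps2 ratios overlap. For G6pdx to Tkt the separation follows from G6pdx lying wholly above and Tkt wholly below.

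Within the oxidative branch the linear ratio of G6pdx to Pgls, looked at after the values were seen and not tested, was 0.431, 0.368 and 0.290 in DMSO and 0.708, 0.593 and 0.675 in GSK libraries. G6pdx to Pgd was 0.292, 0.342 and 0.286 in DMSO and 0.462, 0.444 and 0.460 in GSK libraries. In both ratios every GSK library was above every DMSO library. For G6pdx to Pgls this had to follow, since G6pdx lay wholly above and Pgls wholly below. The summed oxidative genes took 34.6%, 35.9% and 35.1% of the reads of all 10 genes in DMSO and 39.8%, 37.5% and 38.0% in GSK libraries. The share of the non-oxidative genes overlapped between the groups (54.6% to 55.7% and 52.5% to 55.3%), and that of the PRPP synthetases went from 9.24% to 10.8% in DMSO to 6.83% to 7.75% in GSK libraries. These shares are descriptions over chosen genes and carry no test.

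Levels of different genes were compared per kilobase of the principal transcript in GENCODE M21, as mean normalised reads per kilobase. In DMSO libraries Pgls (1305 ± 196) and Taldo1 (1261 ± 30.5) stood highest and their library ranges overlapped. Below them, with no overlap between neighbours, came Tkt (891 ± 32.7), Pgd (611 ± 32.4), Prps1 (335 ± 27.9), G6pdx (157 ± 18.9), Rpe (67.3 ± 7.13), Prps2 (46.0 ± 2.04), Rpia (18.9 ± 0.214) and H6pd (6.71 ± 0.781). By this length G6pdx, which starts the pathway, thus ranked 6 and Pgls, which follows it, ranked 1. In GSK libraries the order was the same except that Taldo1 (1318 ± 236) stood above Pgls (945 ± 135). Tkt (611 ± 111) and Pgd (547 ± 61.8) no longer separated, nor did Prps1 (218 ± 34.7) and G6pdx (208 ± 24.1). Prps2 and Rpia, and Rpia and H6pd, overlapped as well. The upper part of this order depends on the length used. Over all annotated exons of each gene the DMSO order was Taldo1 (714 ± 17.2 per kilobase), Tkt (390.5 ± 14.3), Prps1 (330.4 ± 27.5), Pgls (309 ± 46.4) and Pgd (210.3 ± 11.1). Pgls thus went from rank 1 to 4 and Prps1 from 5 to 3, with Prps1 above Pgd without overlap, while the other 5 genes kept their ranks.

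The spread within the GSK group was shared by several of these genes. GSK replicate 1 was the lowest GSK library for 6 of the 10 genes, G6pdx, Pgls, Pgd, Tkt, Taldo1 and Prps1, and replicate 3 the highest for the same 6. Replicate 1 also had the smallest sum of normalised values. With equal library totals replicates 1 and 3 were each lowest for 4 genes. Replicate 3 was then highest for 6 genes and replicate 1 for 3.

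Relatives of the pathway, in a list of 18 genes drawn from its biochemistry with earlier results of these data known, also went both ways. Of the 12 that were tested, 3 were higher, 3 lower and 6 not called, with a median log2 fold change of -0.05. Among all genes tested 36.1% were called. Xylb, which encodes xylulokinase, a source of xylulose 5-phosphate, fell from 135, 175 and 121 to 80.8, 58.8 and 59.4 normalised reads (log2 fold change -1.10, limma adjusted p = 0.000226). Tigar, whose product lowers fructose 2,6-bisphosphate and can divert sugar toward the pathway, fell from 60.5, 69.6 and 71.6 to 27.3, 41.3 and 42.4 (-0.87, adjusted p = 0.00833). Idnk, which encodes a gluconate kinase that supplies 6-phosphogluconate, rose from 211, 268 and 242 to 297, 397 and 413 (0.61, adjusted p = 0.0046). For each of these genes the GSK values lay entirely on 1 side of the DMSO values, as they did for 47.2% of all genes tested. Being named because they were called, these genes gain no support from the separation. The third fall was Prps1l3. The other rises were low genes, Shpk (sedoheptulokinase; log2 fold change 1.11, adjusted p = 0.0356) and the transketolase-like Tktl1, which went from 14.9, 16.3 and 4.65 to 37.6, 30.3 and 19.1 (1.32, adjusted p = 0.0214). Tktl1 thus moved opposite to Tkt, but at no more than 37.6 normalised reads in any library. Prpsap1 and Prpsap2, which encode proteins that associate with the PRPP synthetases, did not pass (log2 fold changes 0.03 and 0.16), and neither did Gpi1, the glycolytic isomerase gene at the branch point (-0.16).

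Enzymes listed as other possible sources of NADPH, and the kinases that make NADP, included 2 higher, 3 lower and 8 not called of 13 (median 0.11). The share called over all genes tested was 36.1%, so this count is near the background. Idh1, the cytosolic NADP-dependent isocitrate dehydrogenase, rose from 2369, 2098 and 1962 to 4148, 4508 and 5291 normalised reads (log2 fold change 1.11, limma adjusted p = 3.63e-06). On the same scale the 95% confidence interval ran from 0.82 to 1.41 for Idh1 and from 0.12 to 0.70 for G6pdx, and the difference between the genes was not tested. Aldh1l2, the mitochondrial formyltetrahydrofolate dehydrogenase, rose from 74.4, 82.5 and 58.5 to 244, 269 and 238 (1.80, adjusted p = 1.05e-07). Mthfd1, the cytosolic folate enzyme, fell from 842, 1005 and 869 to 331, 316 and 298 (-1.52, adjusted p = 2.11e-08). Idh2, the mitochondrial counterpart of Idh1, fell by 0.39 on the log2 scale (adjusted p = 0.0348), and Me2 by 0.36 (adjusted p = 0.0373). The cytosolic malic enzyme gene Me1 (0.34, adjusted p = 0.172) and Nadk (0.02, adjusted p = 0.932) did not pass.

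Of the 11 genes reported here whose products spend NADPH, 7 were called, 5 higher and 2 lower (median 0.29). Over all genes tested the called share was 36.1%. Dhcr7, the last step of cholesterol synthesis, rose from 736, 736 and 716 to 1520, 1867 and 2143 normalised reads (log2 fold change 1.32, limma adjusted p = 2.33e-07). Nqo1, a quinone reductase gene, rose from 34.0, 38.7 and 40.9 to 81.9, 111 and 107 (1.37, adjusted p = 5.45e-05). Blvrb, a biliverdin reductase abundant in red blood cells, rose from 124, 161 and 86.4 to 762, 1053 and 1069.6 (2.98, adjusted p = 2.26e-08) beside the red blood cell genes above, whose part in it was not tested. Akr1b3, an aldose reductase gene, fell from 636, 662 and 718 to 374, 374 and 386 (-0.83, adjusted p = 3.54e-05), and glutathione reductase (Gsr) was the other fall (-0.97, adjusted p = 0.000472). For each of these genes the GSK values lay wholly on 1 side of the DMSO values, as they did for 47.2% of all genes tested. These genes were named because they were called, so the separation adds no support. Fasn and Txnrd1 did not pass (0.06 and -0.23).

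Of 8 genes whose products use PRPP, 7 were tested. Against 36.1% called over all genes tested, 3 of the PRPP users were lower, none higher and 4 not called (median -0.04). At an unadjusted p below 0.05, Uprt alone among these was higher (log2 fold change 0.54, limma adjusted p = 0.0932). Ppat, the first committed enzyme of purine synthesis, fell from 563, 593 and 511 to 200.3, 208 and 206 normalised reads (log2 fold change -1.43, limma adjusted p = 7.46e-08). Umps, which makes uridine monophosphate, fell from 659.7, 659 and 608 to 261, 262 and 305 (-1.22, adjusted p = 4.93e-07). Aprt, which salvages adenine, fell from 835, 919 and 901 to 459.7, 626 and 659.995 (-0.62, adjusted p = 0.0018). The salvage genes Hprt and Nampt did not pass, with log2 fold changes of 0.10 and 0.19. The falling PRPP users, like Prps1 and Prps2, moved beside the cell cycle genes listed above, and the part of cell division in these falls was not tested.

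**Figure D4:**
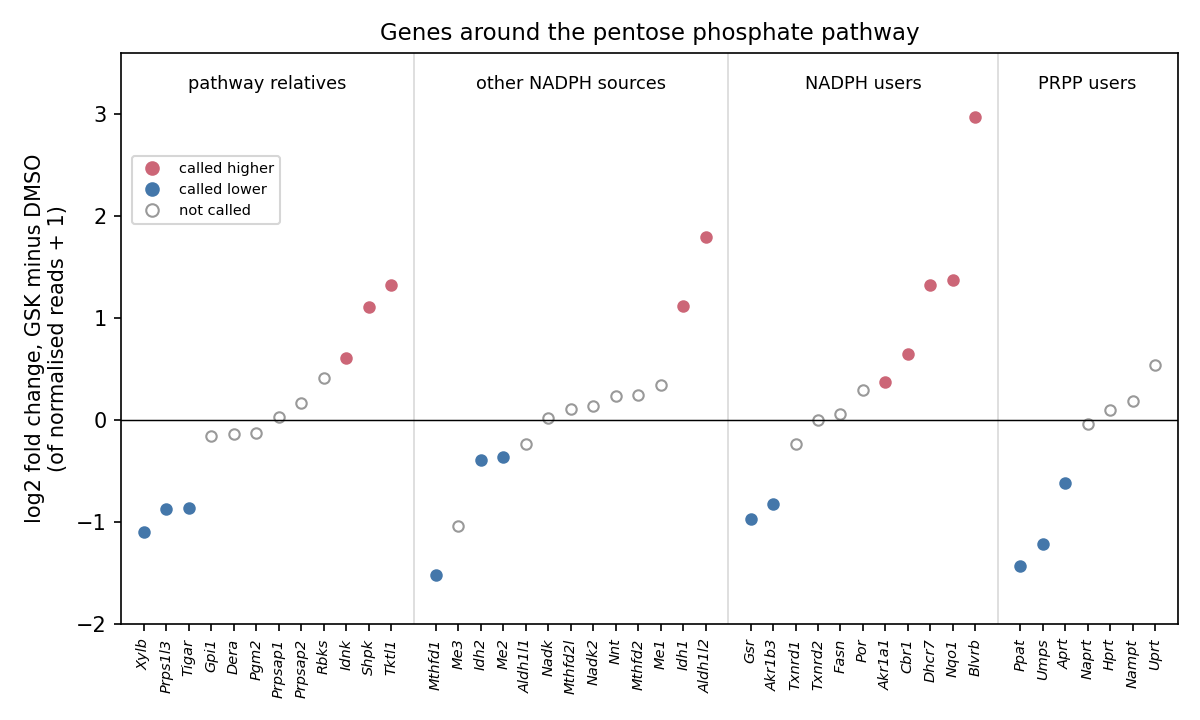
log2 fold change of GSK against DMSO for the tested genes of 4 lists around the pathway, sorted within each list, with filled red points called higher, filled blue points called lower and open points not called. Called rises and called falls occur together in every list except the PRPP users, where the 3 called genes Ppat, Umps and Aprt are lower. Among the PRPP users, Uprt, Nampt and Hprt have positive values but are not called.

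Genes that followed the same course over the 6 libraries were sought among 9074 well expressed protein coding genes by Pearson correlation of log2 values, as a description only, since all points share the group difference and the library scaling. The closest to G6pdx were Dusp1, a phosphatase gene of the immediate early kind (r = 0.996), Klc4, a kinesin light chain gene (0.994), and Neurod1, a neuronal transcription factor gene (0.992). The closest to Tkt were Ptma, which encodes prothymosin (0.999), Wars, a tryptophanyl-tRNA synthetase gene (0.998), and Fabp5, a fatty acid binding protein gene (0.998). With r above 0.95 there were 150 genes for G6pdx and 391 for Tkt, so these names are the nearest of many.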

How the data were processed

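The authors' deposited signal values are normalised read counts in 1 table that repeats a gene's values on every transcript row (118098 rows, 32285 genes); 1 row per gene was kept. Per the submitters' processing notes, STAR and DESeq were used, with GRCm38 and mm10 as builds. Which program counted reads, on which annotation and with what strand setting, is not given in the sources used here. In every library 100% of nonzero values, divided by what 1 read is worth, came to whole numbers within 0.01. Members and lists were chosen with earlier results of these data known. Of the list of NADPH users, 2 genes are not reported here, and its counts leave them out.

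The test was limma 3.58.1 (R 4.3.3, trended and robust priors) on log2(value + 1), which understates the change of low genes, with group as the only term and a filter on genes averaging at least 10 across the 6 libraries. Named were all 10 members, up to 4 called genes a list by smallest p, up to 2 that did not pass, and the 3 genes most like G6pdx and Tkt among protein coding genes whose mean reached 100. Prpsap2, Tktl1, Shpk, Me2, Gsr, Uprt and the genes that overlap or resemble members were named after their values were seen. Ratios used exact permutation tests (scipy 1.17.1). The fit was tested on simulated data. Each choice was varied alone: the pseudocount, the filter, the library scaling, weights per array, a block for the replicate number, the libraries (leaving out each), and the tool, with edgeR 4.0.16 or DESeq2 1.42.0 run on whole reads recovered from the values.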

Additional observations from a re-analysis of the deposited data

How the results depend on the processing

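Tkt, Prps1 and Prps2 stayed lower and called under every alternative run. G6pdx was not called with equal library totals (log2 fold change 0.34), which left 0 genes of the pathway called higher and 1 in the oxidative branch, and ranged from 0.32 to 0.49 with a library left out, called in 2 of those 6 fits. Pgls ranged from -0.60 to -0.34, with 2 calls lost. Counts of the 10 genes over those fits ran from 0 to 1 higher and 3 to 4 lower, with 0 to 2 called in the oxidative branch. The log2 fold change of Taldo1, never called, was -0.022 with equal library totals, and with a library left out went from -0.047 (without GSK replicate 3) to 0.21, being -0.014 without GSK replicate 2. The log2 ratio difference of Rpia to Rpe ran from -0.70 to 0.11, and that of Prps1 to Prps2 from 0.34 to 1.11. Genes called in all numbered 5446, 4083 to 6298 with a library left out (1748 to 3071 higher) and 8962 (4651 higher) with array weights, whose estimator did not converge. edgeR called 5496 and DESeq2 5129 on recovered reads. No label says that the replicate number pairs libraries. Correlations of same-numbered deviations ran from -0.0236 to 0.0529, which cannot exclude a pairing. With a replicate block 5642 genes were called, against 5446 without it. No call among the 10 genes changed with the block (G6pdx limma adjusted p = 0.0249). Rpia and H6pd had at most 43 reads per library, which limits their precision. The cause of these changes was not tested.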
